A study of Mus musculus with 10 samples.

Results

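At Arid1a, the gene that is deleted in the KO cells of this study, H3K4me3 enrichment covered a longer stretch in the KO library than in the WT library, while H3K27me3 was called in neither. The stretches are SICER islands, windows rich in ChIP reads joined across short gaps. Each island was compared with the matched input as a whole, not window by window. Over the whole lists, H3K4me3 islands also covered more in KO, at 147.5 Mb against 101.4 Mb in WT. All islands that touched a 100 kb window of mm9 chromosome 4 (133225001 to 133325000) were taken, which gave 15 of the 84243 islands in the 4 lists. Of these, 5 came from WT H3K4me3 and 10 from KO H3K4me3, with 0 from WT H3K27me3 and 0 from KO H3K27me3. The H3K4me3 counts depend on where the window ends: with 25 kb added on each side they were 9 in WT and 12 in KO. Arid1a is read from right to left in this window, with its promoter at the right end. No gene annotation of mm9 was used here, so the ends of the gene and its exons are not placed on the islands.

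The cells are mouse embryonic stem cells of mixed 129/C57BL/6 strain, grown with LIF on a layer of mouse embryonic fibroblasts. WT cells were given ethanol and KO cells 1 µM 4-OH tamoxifen for 36 hours, beginning 4 hours after passage, so loss of BAF250a and exposure to the drug cannot be told apart. The labels name neither the recombinase nor the exons removed, and do not say whether feeder cells, which carry their own Arid1a, were taken out before the chromatin was prepared. Of the 10 samples, the 4 ChIP libraries were analysed, 1 per genotype and mark, so no difference below can be set against a spread between replicates. No test between genotypes was run, and stem cell and fibroblast marker genes, which need mm9 positions, were not checked. Island counts differed between the full lists, at 28365 in WT and 40978 in KO for H3K4me3 and 8067 and 6833 for H3K27me3. The ChIP reads inside all H3K4me3 islands summed to 9565481 and 13512350. How deeply the WT and KO libraries were sequenced relative to each other is not known from the lists, and its part in the differences below was not tested.

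Arid1a encodes BAF250a, a large subunit with an AT-rich interaction domain that binds DNA without marked sequence preference. It belongs to the canonical BAF complex, in which the ATPase Smarca4 or Smarca2 moves and evicts nucleosomes. H3K4me3 is placed at the start sites of active and poised genes by SET1 and MLL complexes, some of which are directed to unmethylated CpG-rich DNA. H3K27me3 is placed by Polycomb repressive complex 2 and is found over silent developmental regulators in stem cells.

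RefSeq lists a pair of starts for Arid1a on the minus strand of chromosome 4, 2784 bases apart. The 250 bases before each start are shown, in capitals where the letters CG occur, because H3K4me3 is known to follow CG-rich promoters. They come from the RefSeq promoter table of build GRCm38.p6, at chr4:133756770-133757019 for the upstream start and chr4:133753986-133754235 for the downstream start. These positions are of a later build than the islands and cannot be set beside mm9 positions.
Arid1a upstream start: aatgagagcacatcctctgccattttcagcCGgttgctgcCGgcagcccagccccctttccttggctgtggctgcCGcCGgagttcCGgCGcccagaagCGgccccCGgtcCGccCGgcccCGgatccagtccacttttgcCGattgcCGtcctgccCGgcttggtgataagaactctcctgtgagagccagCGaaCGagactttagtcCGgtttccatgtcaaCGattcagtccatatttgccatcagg
Arid1a downstream start: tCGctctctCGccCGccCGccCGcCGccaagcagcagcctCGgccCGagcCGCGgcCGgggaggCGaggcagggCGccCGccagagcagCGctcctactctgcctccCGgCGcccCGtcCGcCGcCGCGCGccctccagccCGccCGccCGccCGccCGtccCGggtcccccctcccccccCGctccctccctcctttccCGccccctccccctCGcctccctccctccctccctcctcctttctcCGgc
The upstream sequence holds 18 CG and is 61.2% G or C, and the downstream one holds 33 CG and is 81.6% G or C. The median of 32851 mouse promoters of the same length was 6 CG and 52.4% G or C. As many CG as before the upstream start were found in 21.7% of those promoters, and as many as before the downstream start in 4.03%. CG reads the same on both strands, so each occurrence was counted once.

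The island at the promoter was already among the largest of its list in WT and ranked higher in KO by reads and width. Its region was picked for having most reads in the right-hand 35 kb of the window, not from an annotation. That choice favours a high rank by reads. In WT the island ran from 133303401 to 133315400, 12 kb, with 2083 ChIP reads and 162 control reads, and the deposited fold over input was 7.23. In KO it ran from 133293201 to 133316400, 23.2 kb, with 3538 ChIP reads and 320 control reads, at a fold of 8.22. By ChIP reads it stood at rank 178 of 28365 in WT and rank 111 of 40978 in KO. By width it stood at rank 506 in WT and rank 182 in KO. That puts it in the widest 1.78% of its list in WT and the widest 0.444% in KO. By fold, which takes the input into account, its place was lower, at rank 2926 in WT and rank 5016 in KO. By reads per kb it stood at rank 231 in WT, with 173.6 reads per kb, and rank 1068 in KO, with 152.5.

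**Figure D1:**
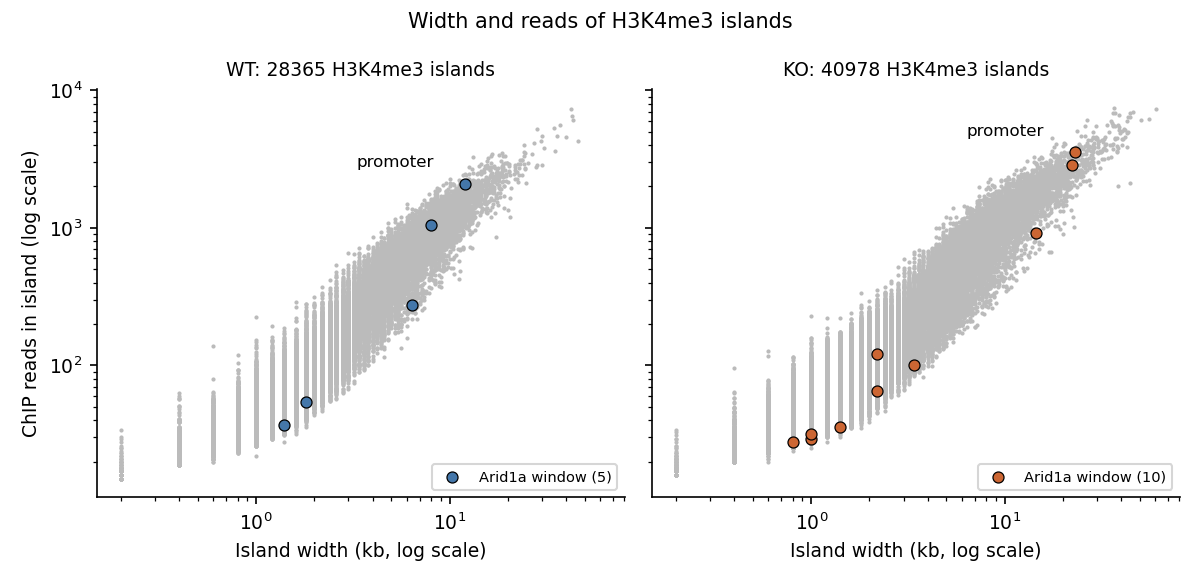
Each grey point is 1 H3K4me3 island, with its width in kb on the horizontal and its ChIP reads on the vertical log axis, for WT (left) and KO (right); coloured points are the islands of the Arid1a window. The promoter island sits near the upper right of both clouds, at 12 kb and 2083 reads in WT and 23.2 kb and 3538 reads in KO, and the KO panel shows a second island close to it, the one at the left end of the window.

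The KO promoter island reached 10.2 kb further than the WT one to the left, the direction of transcription, and 1 kb further on the upstream side. A small WT island of 1.4 kb with 37 reads (133301601 to 133303000), set off from the main one by a gap of 400 bp, lay inside the KO island. With it included, the WT islands of the promoter region covered 13.4 kb and held 2120 ChIP and 176 control reads. Upstream of the promoter, the next island began 50.6 kb away in WT and 26.8 kb away in KO, outside the window. The added KO length thus lay mostly to the left.

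**Figure D2:**
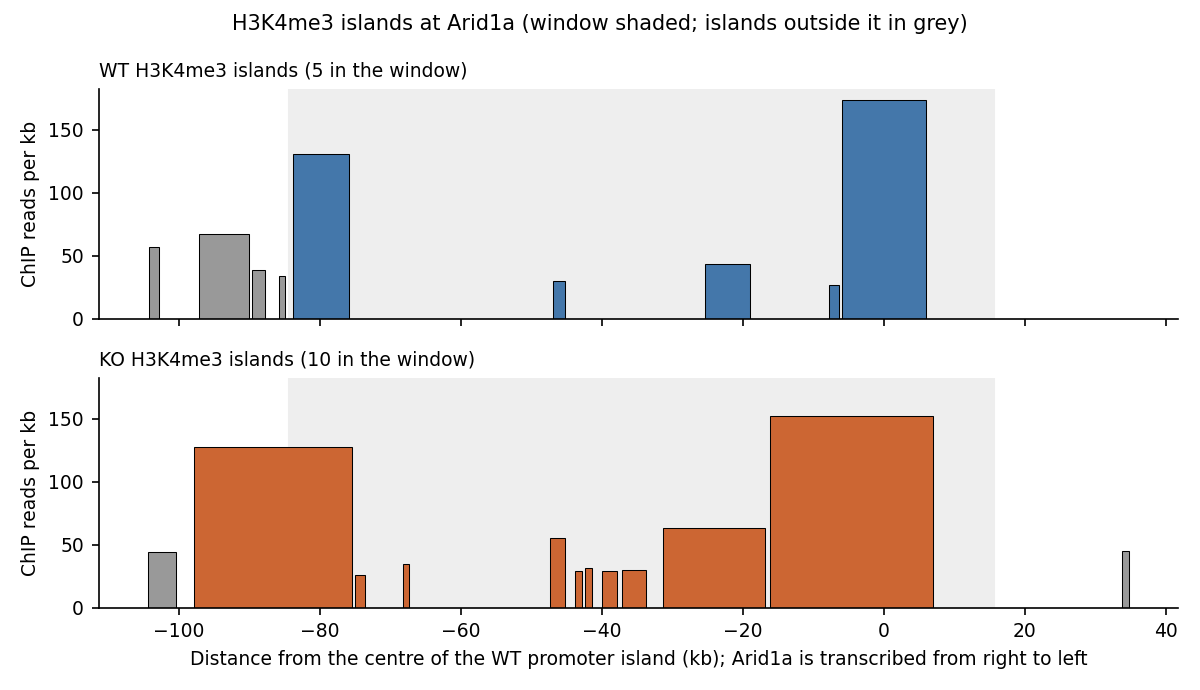
H3K4me3 islands in WT (top) and KO (bottom) by distance in kb from the centre of the WT promoter island, with the height of each bar giving ChIP reads per kb of island, not scaled for depth; the shaded area is the window and grey bars are islands outside it. The 5 WT islands of the window are separated by gaps of up to 28.8 kb, and the KO islands by gaps of up to 20 kb. Between that widest KO gap and the promoter, the KO islands come close to each other, with gaps of at most 2.4 kb.

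KO reads inside the islands of the promoter region exceeded WT reads in number but not in density. The KO to WT ratio was 1.67 in plain reads. Divided by the same ratio over all shared H3K4me3 regions, merged regions with an island in each genotype, it was 1.27 (95% interval 1.20 to 1.34 by the exact conditional binomial method, counting error only). This quantity is called scaled reads below. Unscaled ChIP density was 158.2 reads per kb of island for WT and 152.5 for KO, so the scaled ratio per kb was 0.733. The fold over input, recomputed from the summed reads and the depth constant of each list, went from 6.77 to 8.22, which is a KO to WT ratio of 1.21 (1.00 to 1.47). Without the depth constants the ratio of ChIP to control reads was 0.918 times that of WT, so the direction rests on those constants. The reads summed over called islands were therefore higher in KO, the scaled density lower, and the fold ratio barely clear of 1. These sums count reads only inside each genotype's own islands, 13.4 kb in WT and 23.2 kb in KO. WT reads in the rest of the region were not counted. This raises the read ratio, and its interval does not cover it. Read ratios of the other regions below are likewise of reads inside islands.

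The promoter region was placed among 23315 shared regions, those in which both libraries had at least 20 reads, and ranked high by the length added and low by the fold ratio. Its gain of 9.8 kb in called length was the 111th largest, above 99.5% of regions, against a median gain of 600 bp. Its scaled read ratio was above that of 71.7% of regions, whose median was 1.03. Its fold ratio was above that of only 20.1% of regions, whose median was 1.58. In 91.4% of the shared regions the fold was higher in KO, so a ratio above 1 is the usual value in these libraries. Called length was greater in KO in 71.8% of them.

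The 3 shared regions closest to the promoter region in reads and called length of both genotypes, by distance on the log2 scale, had higher fold ratios. The first, at chromosome 6, 122275801 to 122298800, went from 13.6 kb and 2206 reads in WT to 23.0 kb and 3416 reads in KO, with folds of 7.21 and 11.3. The second, at chromosome 11, 69377601 to 69401000, went from 13.2 to 23.4 kb and from 2145 to 3235 reads, with folds of 5.31 and 7.63. The third, at chromosome 19, 32828001 to 32848200, went from 13.2 to 20.2 kb and from 2242 to 3341 reads, with folds of 8.13 and 15.0. Their fold ratios were 1.57, 1.44 and 1.84, each above the 1.21 of Arid1a. Only 20.1% of all shared regions lay below the Arid1a value and the median was 1.58, so a higher ratio is the usual case. The 3 regions were picked for their likeness in reads and length, so their agreement in those is no finding.

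Next to the promoter region, on its left, lay the region with the highest scaled read ratio of the window. In WT it was 1 island from 133284001 to 133290400, 6.4 kb, with 276 ChIP and 81 control reads at a fold of 1.92. In KO it was 1 island from 133278001 to 133292600, 14.6 kb, with 924 ChIP and 148 control reads at a fold of 4.64. Its scaled read ratio was 2.55 (2.22 to 2.92), above 97.4% of shared regions, and its fold ratio 2.42 (1.79 to 3.28), above 89.3%. WT reads outside the 6.4 kb WT island were not counted. This raises the scaled read ratio, and its interval does not cover it. Called length was 8.2 kb greater in KO, above 99.04% of regions. Unscaled ChIP density was 43.1 reads per kb for WT and 63.3 for KO, and control density 12.7 and 10.1. By reads the island stood at rank 10483 in WT and rank 4383 in KO, and by width at rank 4663 and rank 895. In KO only 600 bp separate this island from the promoter island.

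Further left, a weak island was present in both genotypes. In WT it ran from 133262401 to 133264200 with 54 ChIP and 23 control reads, a fold of 1.32, which is lower than that of 97.6% of the WT list. In KO it ran from 133262001 to 133264200 with 122 ChIP and 17 control reads, a fold of 5.33. The scaled read ratio was 1.72 (1.24 to 2.41) and the fold ratio 4.04 (2.00 to 8.17), above 99.02% of shared regions. Part of this fold ratio comes from the control, at 12.8 control reads per kb for WT and 7.73 for KO, a quotient of 0.605 whose interval (0.303 to 1.18) spans 1. By ChIP reads, its rank was 20644 of 28365 in WT and 18401 of 40978 in KO.

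**Figure D3:**
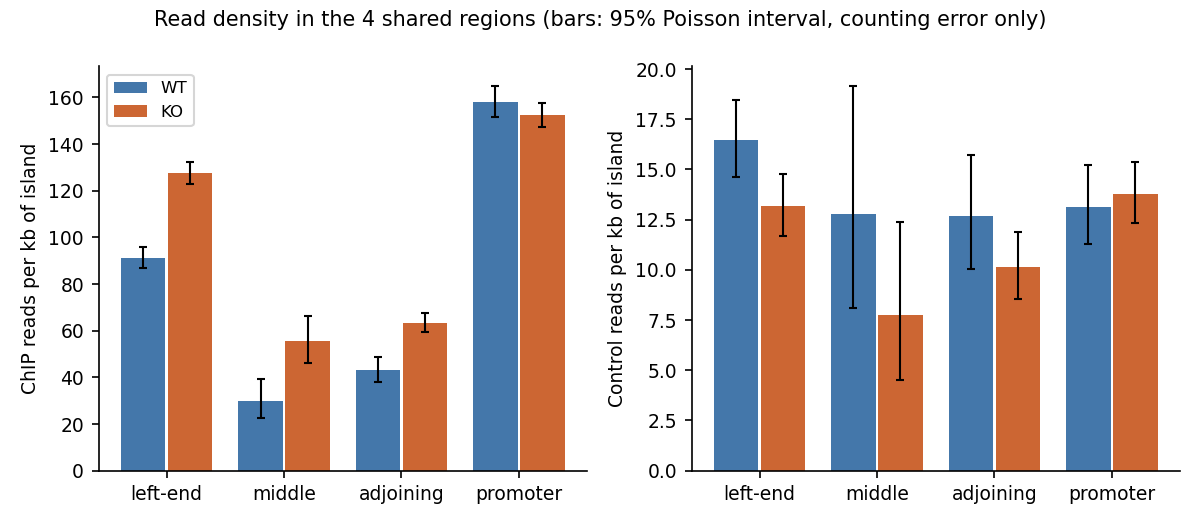
ChIP reads (left) and control reads (right) per kb of called island in the 4 shared regions of the window, unscaled, for WT and KO; error bars are 95% Poisson intervals of the counts. ChIP density was higher in KO in the left-end, middle and adjoining regions (middle region 30.0 and 55.5) and 158.2 against 152.5 in the promoter region, whereas control density was lower in KO in the first 3 and 13.1 against 13.8 at the promoter.

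At the left end of the window 1 long KO island spanned a row of WT islands. In KO it ran from 133211601 to 133234000, 22.4 kb, with 2861 ChIP and 295 control reads at a fold of 7.21, at rank 230 by reads and rank 203 by width, and 13.4 kb of it lay outside the window. Inside the window WT had 1 island there, from 133225601 to 133233600, 8 kb, with 1044 ChIP and 130 control reads at a fold of 4.51, at rank 2068 by reads and rank 2581 by width. In all, 4 WT islands overlapped the KO island, with 1624 ChIP and 293 control reads over 17.8 kb. For this region the scaled read ratio was 1.34 (1.26 to 1.43), and the folds were 3.12 and 7.21, a ratio of 2.31 (1.95 to 2.75) above 86.9% of shared regions. Control density was 16.5 reads per kb for WT and 13.2 for KO. In the RefSeq gene order, the next protein-coding gene on this side is Pigv, a mannosyltransferase gene of glycosylphosphatidylinositol anchor synthesis, read in the same direction as Arid1a and followed by Zdhhc18. On the other side the next named gene is Rps6ka1, which encodes a ribosomal S6 kinase, beyond the predicted Gm34296. Which of these genes the left-end islands belong to was not determined.

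Between the left-end region and the promoter region, over 59.2 kb, KO islands were more numerous and covered more of the sequence. WT had 2 islands there, covering 8.2 kb or 13.9% of the span, with 330 ChIP and 104 control reads. KO had 8 islands, covering 26.6 kb or 44.9% of it, with 1337 ChIP and 264 control reads. The scaled read ratio of these sums was 3.08 (2.73 to 3.49) and the fold over input went from 1.78 to 3.76. Unscaled ChIP density was 40.2 reads per kb of called island for WT and 50.3 for KO. The sums count reads only inside islands, so they hold the longer called length as well as the density. Of the KO islands summed, 6 with 291 ChIP reads in all had no WT partner, and WT reads at those places were not counted. This raises the scaled read ratio, and its interval does not cover it.

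Of the 10 KO islands, 6 had no WT partner. In the whole KO list 40.4% of islands lacked a WT partner. They were small, from 800 to 3400 bp wide, with 28 to 101 ChIP reads and folds of 1.80 to 2.97, and together held 291 reads, 3.76% of the KO island reads listed for the window. The strongest by reads, from 133272201 to 133275600, had 101 ChIP and 33 control reads, and the one from 133269401 to 133271600 had 65 and 24. Those from 133265601 to 133266600 and from 133267001 to 133268000 had 29 and 32 ChIP reads over 12 and 13 control reads. The remaining ones, from 133234401 to 133235800 and from 133241201 to 133242000, had 36 and 28 ChIP reads over 9 and 8 control reads. Across the list, KO islands without a WT partner had medians of 47 reads, 1200 bp and 2.36-fold. The ranges at Arid1a span these medians, but most of its islands lay below the median of reads and most below that of fold. None of the 5 WT islands lacked a partner in KO, where 5.34% of the WT list did.

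Counted over the 4 shared regions of the window, 2 had scaled reads at least 1.5 times higher in KO, against 16.1% of all shared regions, and 0 had them that much lower, against 5.93%. For fold over input the count was 3 of 4 higher, against 57%, and 0 lower, against 2.18%. For called length it was 2 of 4 higher, against 26.8%, and 0 lower, against 2.9%. The promoter region passed the threshold for length alone, the adjoining region for all 3 measures, the middle region for scaled reads and fold, and the left-end region for fold alone.

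**Figure D4:**
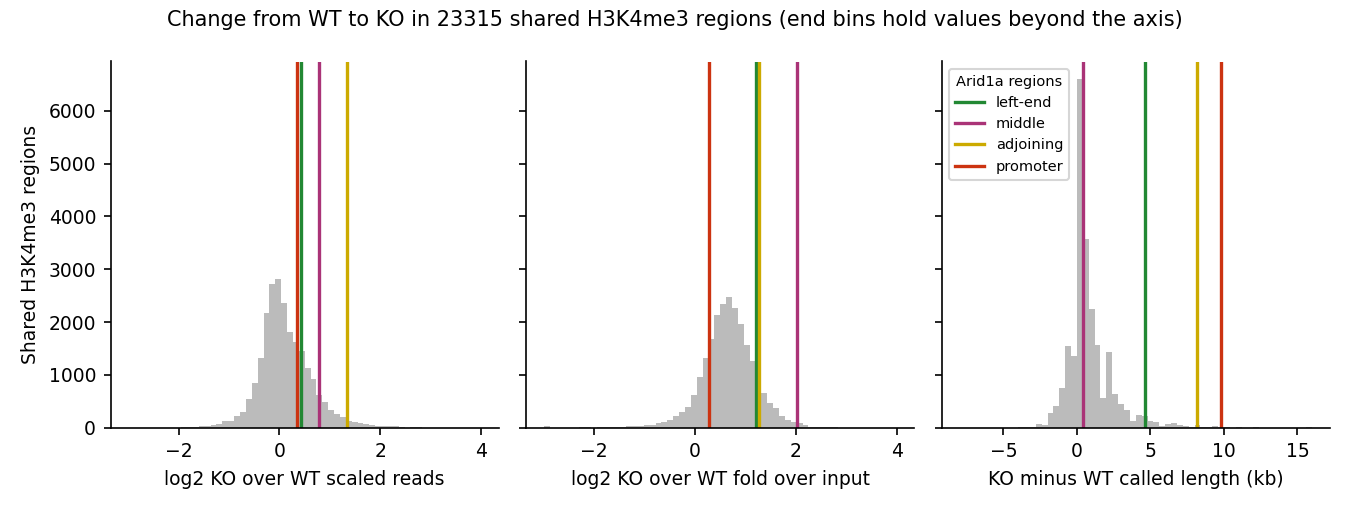
Histograms of log2 KO over WT scaled reads, log2 KO over WT fold over input and KO minus WT called length in kb over 23315 shared H3K4me3 regions, with coloured lines at the 4 regions of the Arid1a window. The promoter line lies right of the bulk for called length (9.8 kb) and left of the centre for fold (ratio 1.21 against a median of 1.58), while the adjoining region lies to the right in all 3 panels.

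Taken as a whole, the window was rich in H3K4me3 in WT and held more called length in KO than nearly all others. Islands covered 29.6 kb of it in WT and 58.8 kb in KO. Among 16166 windows of 100 kb with an H3K4me3 island in either list, laid out in step with this one, it held rank 395 by called length in WT, rank 109 in KO and rank 66 by the difference of 29.2 kb, where the median difference was 1 kb. By full width, 3 of its 10 islands in KO and 1 of 5 in WT were 10 kb or wider, against 6.63% and 4.31% of the lists. The KO count includes the left-end island, which has 13.4 kb of its 22.4 kb outside the window and reaches 10 kb only with that part.

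The surrounding chromatin is given for comparison. Within 500 kb on either side there were 57 further H3K4me3 islands in WT and 74 in KO, and 44 shared regions. Called length was greater in KO in 31 of the 44, with a median gain of 0.7 kb and a largest gain of 12.2 kb. Scaled reads were higher in KO in 22 of the 44, with a median ratio of 0.992 and a range of 0.618 to 1.92. The scaled read ratio of the adjoining region, 2.55, lay above that range, and those of the other 3 regions lay inside it. All these ratios count reads only inside islands, so they hold differences in called length as well as in density. The fold ratio of these neighbours had a median of 1.58 and was above 1 in 43 of 44. The gain of 9.8 kb at the promoter was exceeded by at least 1 neighbour, while its KO read count of 3538 was above the highest of the neighbours, 1544.

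Control reads inside islands were used to look at the input over the locus, since removal of part of the gene would lower the input there. KO over WT control reads per kb were 1.05 (0.871 to 1.27) in the promoter region and 0.801 (0.607 to 1.06) in the adjoining region. In the middle region the ratio was 0.605 (0.303 to 1.18), the lowest of the 4, from 23 and 17 control reads. In the left-end region it was 0.800 (0.678 to 0.944), and the median over all shared regions was 0.933. The interval of each of the 4 regions covered that median. Control reads are given only where islands were called, and the labels do not place the deleted exons, so these counts do not check the deletion.

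H3K27me3 had no island in the window in either genotype, and the nearest ones were far away. On the left the nearest WT island ended 1620.8 kb from the window (131599401 to 131604200, 112 reads, fold 2.90) and the nearest KO island 1621.2 kb away (131600401 to 131603800, 62 reads, fold 2.74). On the right the nearest began 600.6 kb away in WT (133925601 to 133927200, 58 reads, fold 1.503) and 4686.8 kb away in KO. A place with no island carries no count, so the level of H3K27me3 at Arid1a is not known beyond its absence from the lists. H3K4me3 islands without H3K27me3 are the usual case, both among wide islands and over the full lists. Of those of 10 kb or wider, 92.96% in WT and 96.7% in KO overlapped none. Over all H3K4me3 islands the shares were 89.2% and 93.2%.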

How the data were processed

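Per the submitters' processing notes, reads were handled with Bowtie (version not given in the sources used here), SICER 1.1 and build mm9. Islands were built from windows of 200 bp, joined across gaps of 200 bp (H3K4me3) or 600 bp (H3K27me3), and listed at FDR 0.05, as the deposited lists are named. Per island the authors deposited a ChIP read count and a control read count, unscaled, a fold (ratio of ChIP to control reads divided by 1 constant per list, 1.78 for WT and 1.35 for KO H3K4me3), a p-value and an adjusted p-value. Treatment of duplicate reads is not given in the sources used here.

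Positions are 1-based, with 1 added to both deposited ends. Islands counted as overlapping at 1 bp, and WT and KO islands were merged into regions. Reads of a region were summed inside each genotype's own islands only. The promoter region is the one with most reads in the right-hand 35 kb. Scaled reads divide the KO to WT ratio by 1.31, its value over all shared regions. Intervals are 95%: exact conditional binomial for counts, normal on the log scale for folds. They cover counting error only, and with 1 library per genotype no p-value was computed. The scaled read ratio and its interval were tested on simulated data in which both genotypes had the same island positions. Fold ratios, called length and differing island ends were not tested in this way. The window and the rules were chosen with earlier results of these data known; the 100 kb windows and the grouping of islands between the end regions were added later. BAF complex genes and cell markers need mm9 gene positions and were not analysed here, nor were the nuclease samples. Python 3.11.15, numpy 2.4.6, pandas 2.3.3, scipy 1.17.1 and matplotlib 3.10.9 were used.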

Additional observations from a re-analysis of the deposited data

How the results depend on the processing

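Of 41 alternatives, 24 left a value inside its interval or a count within 1.5 times, 15 moved it and 2 turned its direction. The promoter percentiles were also given 95% intervals for this, such as 99.27 to 99.46 by reads in WT. A rank in a complete list has no sampling error, so those intervals measure no spread. The 24 include all alternatives for the H3K27me3 counts, which could not have changed. Stricter settings leave a count of 0 at 0, and the nearest H3K27me3 islands lay far beyond the added 25 kb. The promoter read ratio of 1.27 became 0.733 per kb of called island, because the KO islands are longer, 1.67 unscaled, 1.18 scaled to the reads of all islands and 1.18 scaled to the 500 kb flanks. Its fold ratio became 0.918 without the depth constants, which differ between the lists. The 5 WT islands became 3 at an FDR of 1e-05, 2 at a fold of 2 or more and 9 with 25 kb added on each side; the KO count stayed between 8 and 12, and H3K27me3 at 0. The promoter's percentile by reads went from 99.37 in WT to 99.19 by reads per kb, 89.68 by fold and 99.22 among islands with an FDR of 1e-05 or less, and from 99.73 in KO to 97.39 by reads per kb and 87.76 by fold. By width it went from 98.12 to 97.65 in WT and from 99.55 to 99.47 in KO under that FDR. With islands joined across gaps of up to 600 bp, an alternative added after the data were seen, as was the flank scaling, it was 97.70 in WT, for 13.8 kb, and 99.82 in KO, where promoter and adjoining islands became 1 of 38.4 kb. The part of library depth in these values was not tested. No paired analysis was possible because each genotype has 1 library per mark and the numbered nuclease samples were not analysed here.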
